A study of Mus musculus with 21 samples.

Results

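RNA levels of 9 genes whose products act on R-loops were examined in B cell precursors transformed by BCR-ABL1 or by C-MYC and in control cells. The genes were taken by symbol from the deposited tables and make up 9 of 24421 gene symbols: Rnaseh1, Rnaseh2a, Rnaseh2b and Rnaseh2c of the RNases H, the helicases Aqr, Dhx9 and Ddx19a, the topoisomerase Top1, and Thoc1 of the THO complex. All 9 passed the filter on low counts, which 12786 genes passed in all. Poly(A) RNA was sequenced from primary bone marrow B cell precursors of 53BP1-/- C57BL/6 mice, so that cells of every group, the control included, lack 53BP1, a protein of DNA break repair. The cells were cultured with interleukin-7 (IL-7) at 10 ng/ml, transduced on days 2 and 3 of culture, and collected 7 to 9 days after transduction. The control group (EV) received the empty retroviral vector MIGR1. The second group received MIGR1 encoding human BCR-ABL1, a fusion kinase found in some B cell acute lymphoblastic leukemias. The third group received MIGR1 encoding mouse C-MYC, a transcription factor. There were 2 libraries in each of the 3 groups. The methods describe the RNA as coming from duplicate experiments, but neither they nor the labels say whether animals were separate, so p-values measure the spread between these libraries, which may be technical.

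An R-loop arises when newly made RNA pairs again with its DNA template and leaves the other DNA strand unpaired. Such structures form where transcription is strong, and in B cells they are best known at the immunoglobulin switch regions, where the exposed strand is a substrate for AID. Cells limit them in several ways. RNase H enzymes cut the RNA strand of the hybrid, helicases unwind it, topoisomerase I relaxes the underwound DNA behind the polymerase, and the THO complex packages new RNA so that it does not return to its template. The study asked, among other things, whether DNA damage in transformed cells relates to R-loop-forming sequences, and the comparisons here give the RNA levels of the factors that act on such structures.

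The libraries held between 20687092 and 24095955 counts on genes, and the 10 most counted genes took between 4.07% and 5.28% of them. Counts of Myc checked the labels. Myc had 181 and 137 CPM (counts relative to library size, which was scaled by TMM) in the EV libraries, 343 and 348 with BCR-ABL1, and 1743 and 1233 with C-MYC, so the groups did not overlap, and reads of the vector and of the endogenous gene cannot be told apart in C-MYC. Trp53bp1, the gene of 53BP1, had between 342 and 723 counts in every library. The deleted part of that gene is not given in the sources used here, so its counts check no label. Markers of other cells differed between the groups. The sums of markers are CPM on library sizes as summed, without TMM. For 10 myeloid markers the sum lay between 1336 and 1373 in EV, between 157 and 182 with BCR-ABL1 and between 232 and 401 with C-MYC. For 6 T and NK cell markers the sums were between 93.5 and 132 with EV, 6.76 and 7.18 with BCR-ABL1, and 3.08 and 4.62 with C-MYC. For 5 stromal markers they were between 106 and 165, 4.93 and 6.02, and 1.65 and 2.51, and Cxcl12 and Pdgfrb were at 0 in both C-MYC libraries. The 8 B cell precursor markers, among them Cd79a and Pax5, summed to between 5525 and 6101 with EV, 5439 and 6053 with BCR-ABL1, and 3011 and 3504 with C-MYC. By the edgeR test and threshold given below, 7 of these 8 were lower in C-MYC against EV, beside 24.5% of all genes tested. In C-MYC against BCR-ABL1, 6 of the 8 were lower, beside 11.9%, and in BCR-ABL1 against EV 1 was, beside 12.0%. None of the 8 was called higher. Of 5 erythroid markers, Hba-a1 and Hbb-bs were at 0 in every library, and the sums were between 0.749 and 1.60 in all libraries. The part of these markers in the results below was not tested. In bulk RNA, fewer cells of a type and less RNA per cell cannot be told apart, and CPM are relative to the library, not to the cell.

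**Figure D1:**
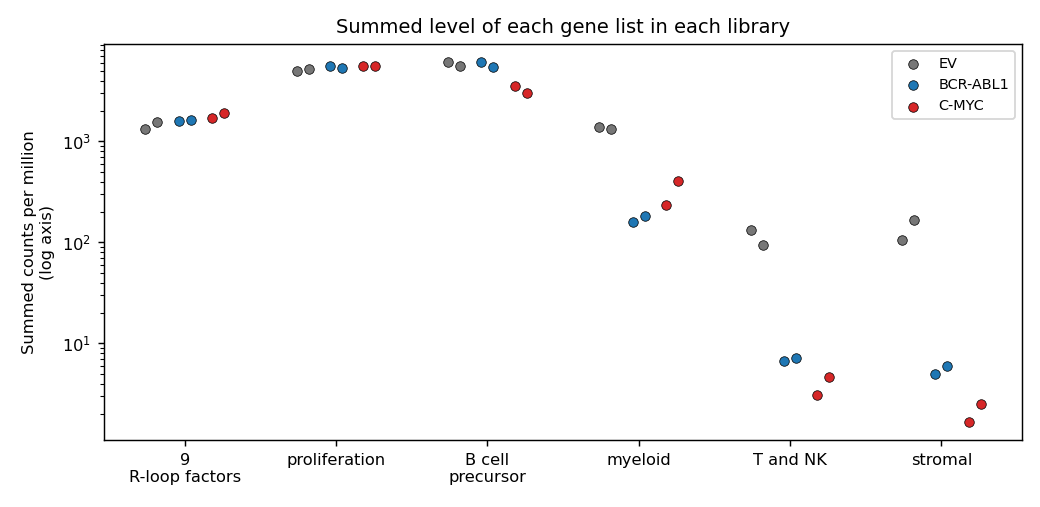
Summed CPM (library sizes as summed, without TMM, on a log axis) of the 9 R-loop factors, of 12 proliferation genes and of 4 marker lists, with 1 point for each library (grey EV, blue BCR-ABL1, red C-MYC). The myeloid, T and NK and stromal sums were higher in both EV libraries than in any other library, while the 9 R-loop factors summed to between 1336 and 1893 CPM.

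In the comparison of C-MYC with EV, 6 of the 9 genes rose: Rnaseh2a, Thoc1, Rnaseh1, Aqr, Dhx9 and Ddx19a, by between 1.29-fold and 1.64-fold (edgeR's quasi-likelihood test, Benjamini-Hochberg adjusted p below 0.05 over 12786 genes). Among all genes tested, 18.6% rose and 24.5% fell in this comparison. The median log2 fold change of the 9 genes was 0.44, beside -0.08 for all genes tested. Of the 9 genes, 0 fell, and 0 did so at an unadjusted p under 0.05, in DESeq2 or in limma on log2(FPKM + 1). The values of both C-MYC libraries lay above those of both EV libraries for 8 of 9 genes, a pattern that 31.5% of all genes tested shared. Between BCR-ABL1 and EV, edgeR called 0 of the 9 genes, beside 5.08% of all genes that rose and 12.0% that fell. At an unadjusted p under 0.05, 2 of them were higher and 0 lower, and DESeq2 called 1 and limma 0. Libraries of BCR-ABL1 lay above those of EV without overlap for 5 of 9 genes, against 29.2% of all genes. Directly compared, C-MYC exceeded BCR-ABL1 in 2 of 9 genes, Rnaseh1 and Rnaseh2a, while 11.5% of all genes rose and 11.9% fell in that comparison. C-MYC libraries lay above those of BCR-ABL1 without overlap for 7 of 9 genes, against 34.5% of all genes. Both comparisons with EV share the EV libraries, so their values are not independent of each other.

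**Figure D2:**
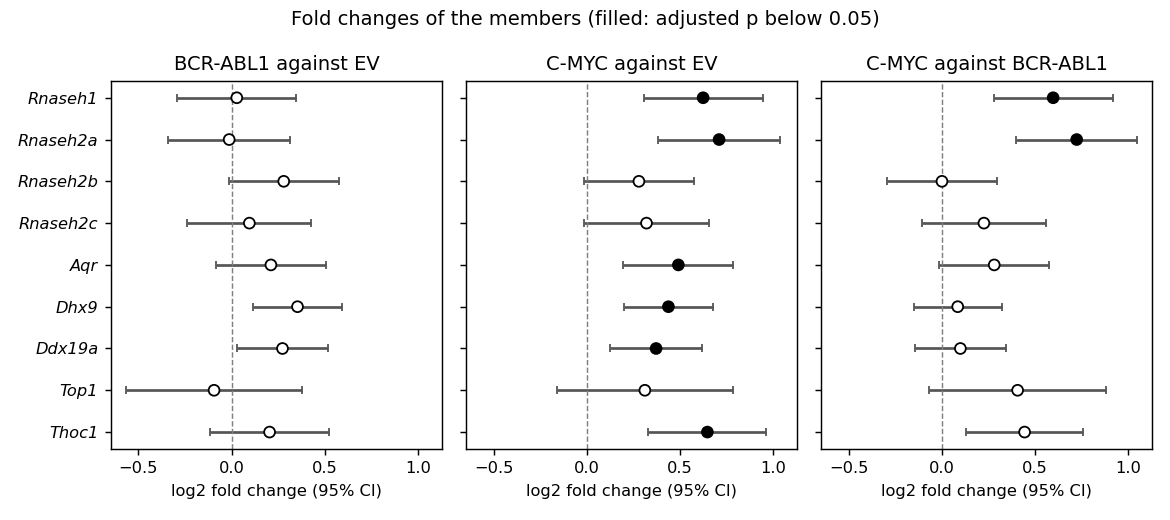
Log2 fold change of each of the 9 genes in the 3 comparisons, from the edgeR model of 6 libraries; bars are 95% confidence intervals and filled points have an adjusted p below 0.05. In C-MYC against EV, all 9 points lie above 0 and 6 are filled, in BCR-ABL1 against EV 0 are filled, and in C-MYC against BCR-ABL1 only Rnaseh1 and Rnaseh2a are.

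RNases H were examined first. Rnaseh1 (chr12:28649602-28659589, plus strand, GRCm38) encodes the single-subunit RNase H1, which cuts long hybrids in the nucleus and in mitochondria. It had 22.1 and 23.0 CPM with EV, 21.9 and 24.1 with BCR-ABL1, and 33.1 and 36.4 with C-MYC. Both C-MYC libraries were above the 4 others, which overlapped. Rnaseh1 rose in C-MYC against EV by a log2 fold change of 0.62 ± 0.14 (SE, edgeR adjusted p = 0.00857) and against BCR-ABL1 by 0.60 ± 0.14 (edgeR adjusted p = 0.0191). For BCR-ABL1 against EV, the log2 fold change was 0.03, with a 95% interval from -0.29 to 0.35 (edgeR adjusted p = 0.919).

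Rnaseh2a (chr8:84956610-84969767, minus strand) encodes the catalytic subunit of RNase H2, the enzyme that also removes single ribonucleotides from DNA. It had 37.9 and 39.9 CPM with EV, 34.4 and 42.6 with BCR-ABL1, and 64.5 and 62.7 with C-MYC. EV and BCR-ABL1 overlapped, and both C-MYC libraries were higher than all others. Among the 9 genes, Rnaseh2a had the largest change in both comparisons of C-MYC, with a log2 fold change of 0.71 ± 0.14 against EV (edgeR adjusted p = 0.00546) and 0.72 ± 0.14 against BCR-ABL1 (edgeR adjusted p = 0.0103). The interval for BCR-ABL1 against EV reached from -0.34 to 0.31. The annotated gene overlaps Gm49661, a protein-coding gene on the same strand, by 1756 bp, and Prdx2 on the other strand by 181 bp. Gm49661 is identical to 339 bases of the Rnaseh2a transcript, and Prdx2 to 154 bases. A processed pseudogene, Gm15703, is 93.8% identical to 901 bases of the Rnaseh2a transcript. The counts of Rnaseh2a are therefore uncertain to the extent that reads were shared. Prdx2 itself had 136 and 134 CPM with EV, 155 and 151 with BCR-ABL1, and 171 and 173 with C-MYC.

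Rnaseh2b (chr14:62292589-62372992, plus strand) and Rnaseh2c (chr19:5601873-5607019, plus strand) encode the accessory subunits that hold the RNase H2 complex together. Rnaseh2b had 61.5 and 58.8 CPM with EV, 78.6 and 67.4 with BCR-ABL1, and 76.3 and 69.7 with C-MYC. Both transformed groups lay above EV and overlapped with each other. Neither difference from EV passed the test: the log2 fold change was 0.28 ± 0.13 in both comparisons (edgeR adjusted p = 0.182 for BCR-ABL1 and 0.112 for C-MYC). Rnaseh2c had 30.6 and 36.2 CPM with EV, 33.9 and 37.5 with BCR-ABL1, and 39.8 and 43.7 with C-MYC. C-MYC was highest without overlap, yet the log2 fold change of 0.32 ± 0.14 against EV did not pass (edgeR adjusted p = 0.107), its interval ran from -0.01 to 0.65, and it passed in 1 of 8 alternative fits. Kat5 lies on the opposite strand over 4006 bp of Rnaseh2c, and it shares 426 bases of exon sequence with it. Kat5 itself had a log2 fold change of -0.39 ± 0.14 in C-MYC against EV (edgeR adjusted p = 0.0581).

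The counts of the catalytic subunit were also set against those of its partners, a comparison chosen for description after the values were seen. The count of Rnaseh2a divided by that of Rnaseh2b was 0.617 and 0.678 with EV, 0.438 and 0.633 with BCR-ABL1, and 0.846 and 0.899 with C-MYC. Divided by Rnaseh2c, it was 1.24 and 1.10 with EV, 1.02 and 1.14 with BCR-ABL1, and 1.62 and 1.43 with C-MYC. Both ratios were highest in the 2 C-MYC libraries, and those of EV and BCR-ABL1 overlapped. With 2 libraries against 2, an exact permutation test cannot give a p below 0.333, and no other test of these ratios was run.

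The helicases moved together in C-MYC, and all 3 passed the test against EV. Aqr (chr2:114101170-114187024, minus strand) encodes Aquarius, a helicase of the spliceosome. It had 119 and 149 CPM with EV, 153 and 157 with BCR-ABL1, and 192 and 185 with C-MYC. The groups stood in this order without overlap, but the EV libraries were far apart. Aqr rose in C-MYC against EV by a log2 fold change of 0.49 ± 0.13 (edgeR adjusted p = 0.0167). It reached 0.21 ± 0.13 in BCR-ABL1 against EV (edgeR adjusted p = 0.308) and 0.28 ± 0.13 in C-MYC against BCR-ABL1 (edgeR adjusted p = 0.151).

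Dhx9 (chr1:153455758-153487660, minus strand) encodes a helicase that unwinds RNA duplexes and RNA-DNA hybrids. It had 645 and 654 CPM with EV, 818 and 841 with BCR-ABL1, and 813 and 946 with C-MYC. Both transformed groups were above EV, with close replicates in EV and BCR-ABL1 and a wider pair in C-MYC that spanned the BCR-ABL1 values. Against EV, Dhx9 rose in C-MYC by a log2 fold change of 0.44 ± 0.10 (edgeR adjusted p = 0.0108). In BCR-ABL1 it had 0.35 ± 0.10 and missed the threshold narrowly (edgeR adjusted p = 0.0516). It passed that threshold in 5 of 8 alternative fits with all libraries of the comparison, among them DESeq2 (adjusted p = 0.0198). The interval for C-MYC against BCR-ABL1 ran from -0.15 to 0.32.

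Ddx19a (chr8:110974996-110997800, minus strand) encodes a DEAD-box helicase of mRNA export at the nuclear pore. It had 122 and 127 CPM with EV, 151 and 149 with BCR-ABL1, and 171 and 151 with C-MYC. EV was lowest without overlap. Ddx19a rose in C-MYC against EV by a log2 fold change of 0.37 ± 0.11 (edgeR adjusted p = 0.0239), and in BCR-ABL1 it had 0.27 ± 0.11 (edgeR adjusted p = 0.123). Its paralog Ddx19b is 93.9% identical over 1622 bases of transcript, so reads may have been split between them. Ddx19b had 48.4 and 34.0 CPM with EV, 56.4 and 57.1 with BCR-ABL1, and 48.7 and 49.3 with C-MYC, with a log2 fold change of 0.25 ± 0.17 in C-MYC against EV (edgeR adjusted p = 0.277).

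Top1 (chr2:160645888-160722764, plus strand) encodes nuclear DNA topoisomerase I. It had 211 and 343 CPM with EV, 249 and 269 with BCR-ABL1, and 326 and 361 with C-MYC. The EV libraries spanned the BCR-ABL1 values and overlapped with C-MYC. None of the Top1 comparisons passed: log2 fold changes were -0.09 ± 0.20 in BCR-ABL1 against EV (edgeR adjusted p = 0.801), 0.31 ± 0.20 in C-MYC against EV (edgeR adjusted p = 0.252) and 0.41 ± 0.20 in C-MYC against BCR-ABL1 (edgeR adjusted p = 0.189). Top1 was the member for which 1 library decided most. Without EV replicate 1, C-MYC against EV gave 0.01 (edgeR adjusted p = 0.966) and BCR-ABL1 against EV -0.40 (edgeR adjusted p = 0.0472). Without EV replicate 2 these values were 0.70 (edgeR adjusted p = 0.00221) and 0.30 (edgeR adjusted p = 0.119). Top1mt, the mitochondrial paralog, had 2.48 and 3.72 CPM with EV, 2.84 and 2.74 with BCR-ABL1, and 9.10 and 8.49 with C-MYC. It rose in C-MYC by a log2 fold change of 1.50 ± 0.27 against EV (edgeR adjusted p = 0.00342) and 1.65 ± 0.27 against BCR-ABL1 (edgeR adjusted p = 0.00571).

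For 6 of the 9 genes, RefSeq (GRCm38.p6) gave the 250 bases before the transcription start in the tables used here; Rnaseh1, Rnaseh2b and Thoc1 were not among them. RefSeq's start is not always the outer end of the gene annotated by GENCODE: the window of Rnaseh2a lies 3441 bases and that of Aqr 11435 bases inside the gene as given above, counted from the window's outer edge, and the other 4 lie at or outside its start. Since one group carried C-MYC, these windows were searched on both strands for CACGTG, the E-box to which MYC and MAX bind, and for its variant CACGCG. Of 32851 promoter windows of this length, 6.02% held CACGTG and 7.62% held CACGCG. Among the 6 windows, CACGTG occurred once, in Top1, and CACGCG once, in Rnaseh2a. The windows of Rnaseh2a (largest change in C-MYC), Top1 (no change past the threshold) and Dhx9 (highest level, with neither motif) are shown 5′ to 3′ on the strand of the gene, with the motif in capitals.
Rnaseh2a, chr8:84966077-84966326, minus strand: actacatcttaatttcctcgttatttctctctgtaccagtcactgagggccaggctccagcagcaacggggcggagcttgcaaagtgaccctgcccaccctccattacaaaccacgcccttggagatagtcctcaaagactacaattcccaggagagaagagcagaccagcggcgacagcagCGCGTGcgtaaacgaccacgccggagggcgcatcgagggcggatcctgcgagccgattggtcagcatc
Top1, chr2:160645647-160645896, plus strand: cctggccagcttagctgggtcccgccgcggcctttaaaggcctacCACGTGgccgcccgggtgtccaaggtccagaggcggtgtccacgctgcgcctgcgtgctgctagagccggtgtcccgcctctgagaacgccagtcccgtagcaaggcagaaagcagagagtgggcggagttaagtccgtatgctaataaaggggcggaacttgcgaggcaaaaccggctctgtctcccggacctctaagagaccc
Dhx9, chr1:153487661-153487910, minus strand: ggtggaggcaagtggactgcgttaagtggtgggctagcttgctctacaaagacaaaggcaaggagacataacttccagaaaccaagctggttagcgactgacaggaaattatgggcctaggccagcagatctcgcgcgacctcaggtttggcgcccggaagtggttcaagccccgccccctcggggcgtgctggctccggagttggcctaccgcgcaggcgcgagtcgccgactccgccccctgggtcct
The motif of Rnaseh2a, read as CGCGTG on this strand, begins 68 bases before the start, and that of Top1 begins 205 bases before it. A match is a description of letters and shows no binding.

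In its RNA, the gene with the E-box, Top1, was not called in any of the 3 comparisons, whereas Rnaseh2a was called in both comparisons with C-MYC. Aqr, Dhx9 and Ddx19a had neither motif in the window and were called in C-MYC against EV. Rnaseh2c had neither motif and was not called. These 6 genes are too few to relate the motif to the change.

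**Figure D3:**
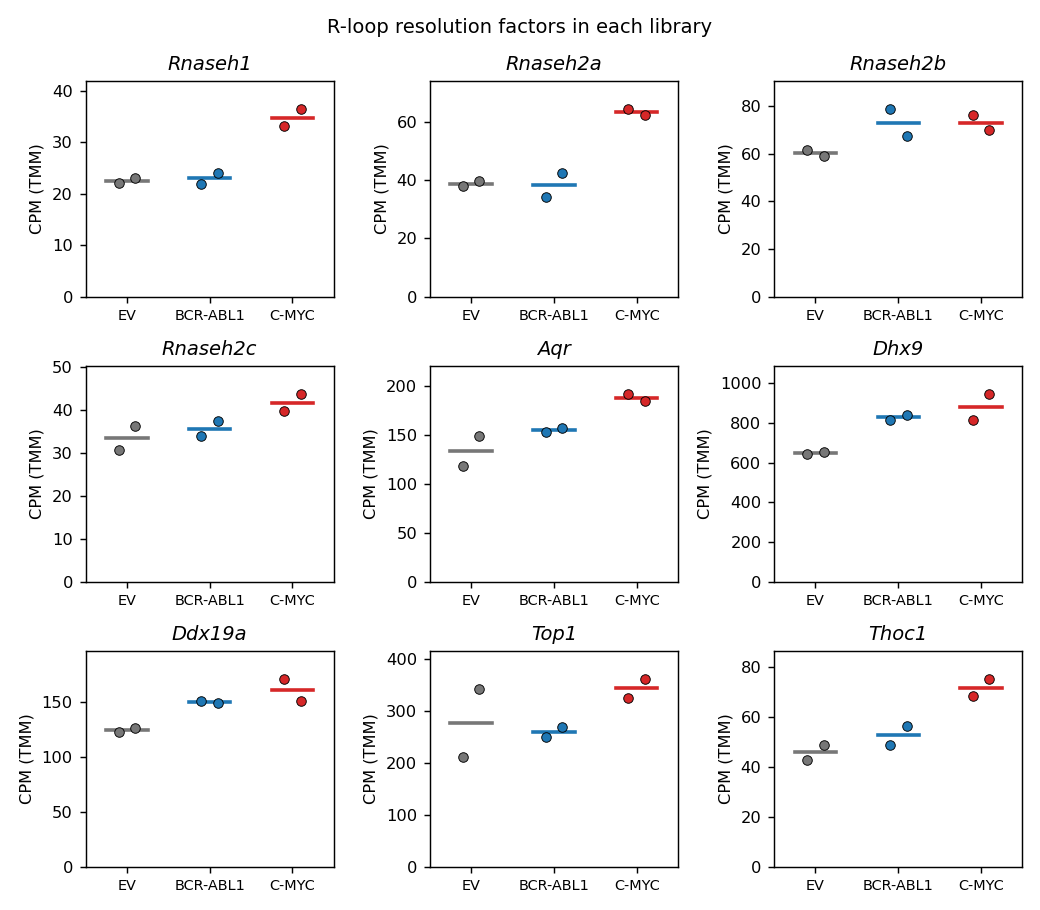
CPM (TMM) of each of the 9 genes, with 1 point for each library and a line at the mean of the 2 libraries of a group; every axis starts at 0. Rnaseh1 and Rnaseh2a are higher in both C-MYC libraries than in the 4 others, Dhx9 and Ddx19a lie above EV in both transformed groups, and the 2 EV points of Top1 (211 and 343 CPM) are the widest pair relative to their mean.

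Thoc1 (chr18:9957906-9995489, plus strand) encodes a core subunit of the THO complex, which joins new RNA during elongation and prepares it for export. It had 42.8 and 48.9 CPM with EV, 49.1 and 56.6 with BCR-ABL1, and 68.5 and 75.2 with C-MYC. C-MYC stood apart from both other groups, which only just failed to overlap. Thoc1 rose in C-MYC against EV by a log2 fold change of 0.65 ± 0.14 (edgeR adjusted p = 0.00719). Against BCR-ABL1 its log2 fold change of 0.44 ± 0.14 missed the threshold (edgeR adjusted p = 0.0511), and it passed in 5 of 8 alternative fits. In BCR-ABL1 against EV it had 0.20 ± 0.14 (edgeR adjusted p = 0.359). Usp14, a proteasome-bound deubiquitinase gene on the opposite strand, overlaps the end of Thoc1 by 2424 bp and shares 2169 bases of transcript with it. Usp14 had 94.6 and 97.9 CPM with EV, 136 and 138 with BCR-ABL1, and 210 and 206 with C-MYC. It rose in C-MYC against EV by a log2 fold change of 1.11 ± 0.10 (edgeR adjusted p = 3.2e-04). The strand setting of the counts is not given in the sources used here, and without strand the reads of both genes in the overlap cannot be told apart, so the change of Thoc1 is uncertain. Thoc2, the large scaffold of the complex and a gene outside the rule for naming, had a log2 fold change of -0.13 ± 0.14 in C-MYC against EV (edgeR adjusted p = 0.478).

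How firmly the calls in C-MYC stand depended on the libraries and the measure. Rnaseh1, Rnaseh2a and Thoc1 were called against EV in all 8 alternative fits with all libraries of the comparison. Aqr, Dhx9 and Ddx19a were called in 5 of 8, failing in limma on log2 FPKM under each of 3 settings. Every fit used the deposited counts or FPKM, so none can address reads that Thoc1 may share with Usp14. When 1 library was left out, Rnaseh2a and Dhx9 were called in 4 of 4 fits, Rnaseh1, Ddx19a and Thoc1 in 3 and Aqr in 2, and the log2 fold change kept its sign in 4 of 4 fits for each of the 9 genes. Without C-MYC replicate 2, 3 genes were called in place of 6. In C-MYC against BCR-ABL1, leaving out a library left between 0 and 1 called: Rnaseh2a passed only without BCR-ABL1 replicate 2, and Rnaseh1 passed in 0 of 4 fits.

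Levels between genes were compared per length only, as deposited FPKM and as CPM per kilobase of annotated exon (library sizes as summed, without TMM). In FPKM, averaged over 6 libraries, Dhx9 was highest at 146, followed by Aqr at 128, Rnaseh2b at 104, Rnaseh2a at 66.2, Top1 at 53.7, Ddx19a at 39.5, Thoc1 at 25.3, Rnaseh1 at 16.6 and Rnaseh2c at 7.20. The ranges over libraries were apart for 3 of 8 pairs of neighbours in this order: Rnaseh2b and Rnaseh2a, Ddx19a and Thoc1, and Rnaseh1 and Rnaseh2c. Within each library, the order of neighbours held in 6 of 6 libraries for 6 of 8 pairs, and in 5 of 6 for Dhx9 and Aqr and for Rnaseh2a and Top1. By CPM per kilobase, Dhx9 was again highest at 81.6, but Ddx19a came next at 48.9, then Top1 at 28.1, Rnaseh2c at 21.5, Aqr at 13.4, Rnaseh2a at 13.3, Rnaseh2b at 11.0, Rnaseh1 at 10.3 and Thoc1 at 6.33. Dhx9 and Rnaseh1 thus kept their place by both measures, and the other 7 genes changed it. Relative to the median gene, FPKM exceeded CPM per kilobase by 6.23 times for Aqr and 6.18 times for Rnaseh2b and was 0.218 times as large for Rnaseh2c. CPM per kilobase uses the union of all annotated exons, and the transcript models behind each FPKM value are not given in the sources used here. Their part in the difference was not tested.

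**Figure D4:**
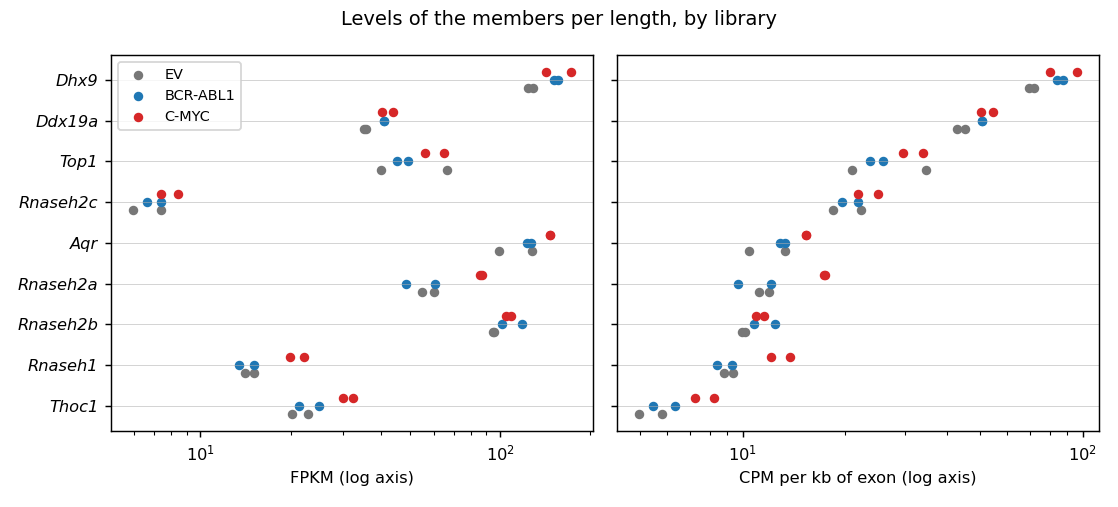
Level of each gene per length in each library, as FPKM (left) and as CPM per kilobase of exon (right), both on log axes; colours mark the group. Dhx9 is rightmost in both panels by its mean, and Rnaseh2c, which is lowest in the left panel, has the fourth highest mean in the right panel, by which the rows are ordered.

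The 9 genes differed in how alike their profiles were. Over the 6 libraries, Pearson's r of log2 CPM between pairs of members ranged from 0.05 for Top1 and Rnaseh2b to 0.98 for Rnaseh1 and Rnaseh2a, with a median of 0.77 over 36 pairs. These libraries share 3 group means and one scaling, so r is given as a description. Among genes that are not members, the nearest profile was that of Psmg3 to Rnaseh1, Rbks to Rnaseh2a, Tigar to Aqr, Psma1 to Dhx9, Magohb to Ddx19a and Pcgf6 to Thoc1, each with r between 0.997 and 0.9997. With 6 points such values are common: between 456 genes, for Dhx9, and 1505 genes, for Thoc1, of 12777 had an r of at least 0.9.

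Other genes of the same pathways were read from lists, whose counts stand beside the 18.6% of all genes that rose and 24.5% that fell in C-MYC against EV, and the 5.08% and 12.0% in BCR-ABL1 against EV. With so few genes in a list, shares are given as counts and were not tested. Of 17 other RNA-DNA helicases, 7 rose in C-MYC against EV and 0 fell, with 2 lower at an unadjusted p under 0.05, and DESeq2 called 9 higher and 0 lower and limma 3 and 1. The largest rises were those of Ddx21, a nucleolar helicase, at a log2 fold change of 1.26 ± 0.09, of Ddx18, a helicase of ribosome assembly, at 0.95 ± 0.12, and of Ddx1, which unwinds RNA-DNA duplexes, at 0.74 ± 0.10. In BCR-ABL1 against EV, 3 of the 17 rose: Blm with 0.45 ± 0.13 (named outside the rule), Ddx21 with 0.37 ± 0.09 and Ddx1 with 0.35 ± 0.10. Ddx21, Ddx18 and Ddx1 were also higher in C-MYC than in BCR-ABL1, by 0.89 ± 0.09, 0.62 ± 0.12 and 0.39 ± 0.10, and were the 3 genes of this list called there.

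Among 19 other genes of THO and mRNA export, 8 rose in C-MYC against EV and 0 fell, with 1 lower at an unadjusted p under 0.05, and DESeq2 called 8 and 0 and limma 4 and 1. Ddx39, an export helicase gene, had 0.78 ± 0.09, Sarnp 0.59 ± 0.17 and Eny2, a subunit of the TREX-2 complex, 0.55 ± 0.12. The median of this list was 0.28, beside 0.44 for the 9 members. In BCR-ABL1 against EV, Ddx39 was the gene called, with 0.33 ± 0.09, and in C-MYC against BCR-ABL1 it was again, with 0.45 ± 0.09. Of 6 genes of the Aquarius complex and of transcription termination, 3 rose in C-MYC against EV: Ppie (0.54 ± 0.11), a cyclophilin of the spliceosome, Isy1 (0.46 ± 0.11), an Aquarius partner, and Xrn2 (0.41 ± 0.09), the exonuclease that ends transcription. In this list edgeR, DESeq2 and limma called the same numbers, and edgeR called 0 of 6 in the other comparisons, with 1 higher at an unadjusted p under 0.05 in BCR-ABL1 against EV and 2 in C-MYC against BCR-ABL1, while DESeq2 and limma also called 0.

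Of 10 other topoisomerase genes and their partners in repair, 2 rose in C-MYC against EV, Top1mt and Tdp1, which removes trapped topoisomerase I, with 0.44 ± 0.15. Top3b, a topoisomerase that acts on DNA and RNA, fell by 0.33 on the log2 scale (SE 0.10). DESeq2 called 2 of this list higher and 0 lower, with 1 lower at an unadjusted p under 0.05, and limma called 0 higher and 1 lower of the 9 with a mean FPKM of at least 1. In BCR-ABL1 against EV, Top2b rose with 0.34 ± 0.10, and it was lower in C-MYC than in BCR-ABL1, with -0.37 ± 0.10 (named outside the rule).

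Genes linked to RNase H2 through disease or DNA sensing were read next. Mutations of RNase H2 subunits, Trex1, Samhd1, Adar and Ifih1 cause Aicardi-Goutieres syndrome, and cGAS (Mb21d1) and STING (Tmem173) signal from cytosolic DNA. Of these 6 genes other than the RNase H2 subunits, 5 fell in C-MYC against EV and 3 in BCR-ABL1 against EV, with 0 higher in both by edgeR, DESeq2 or limma or at an unadjusted p under 0.05. In C-MYC, Samhd1 fell by 2.00 on the log2 scale (SE 0.17), Ifih1 by 1.65 (SE 0.38) and Trex1 by 0.92 (SE 0.26). In BCR-ABL1, Samhd1 fell by 2.63 (SE 0.17), Ifih1 by 1.51 (SE 0.38) and Tmem173 by 0.61 (SE 0.12). The summed CPM of the myeloid markers moved in the same direction, as given above, and against EV all 10 of them fell with BCR-ABL1 and 9 of 10 with C-MYC, and their part in these changes was not tested.

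Of 12 proliferation genes, 7 rose in C-MYC against EV, with Ccnb1, Mcm6 and Mcm5 first (log2 fold changes of 0.65 ± 0.11, 0.50 ± 0.10 and 0.46 ± 0.11), and 0 fell by edgeR, DESeq2 or limma or at an unadjusted p under 0.05. Their median of 0.40 lay close to the 0.44 of the 9 members. In BCR-ABL1 against EV, edgeR called 0 of them, with 7 higher at an unadjusted p under 0.05, and DESeq2 called 4 and limma 0. The medians were further apart in C-MYC against BCR-ABL1, at 0.11 for the 12 proliferation genes and 0.28 for the 9 members. There, edgeR called 0 of the 12, with 2 higher at an unadjusted p under 0.05, and DESeq2 called 1 and limma 0. The part of the proliferation genes in the changes of the members was not tested.

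**Figure D5:**
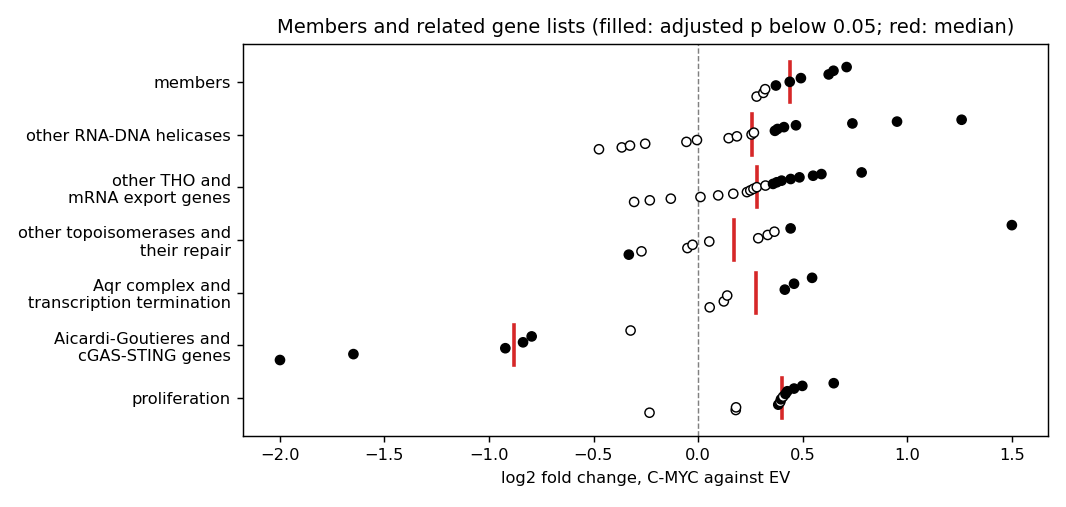
Log2 fold change in C-MYC against EV of each gene of the 9 members and of 6 related lists; each point is a gene, filled points have an adjusted p below 0.05, and the red line is the median of the list. All 9 members lie right of 0, as do all 6 genes of the Aquarius and termination list, and all 6 of the Aicardi-Goutieres and cGAS-STING list lie left of it.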

How the data were processed

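Poly(A) RNA libraries of 6 samples (2 each of EV, BCR-ABL1 and C-MYC) were analysed, and the ChIP-seq samples of the series were not analysed here. The authors aligned reads to GRCm38/mm10 with STAR 2.5.0 and UCSC known genes, and the deposited counts are whole numbers for each gene symbol without normalization. The deposited FPKM values were calculated by the authors with StringTie 1.3.0. The program that made the counts and its use of strand are not given in the sources used here. All columns of both tables belong to these samples (columns of no sample: 0).

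From the counts, edgeR 4.0.16 (R 4.3.3) was fitted to all 6 libraries with condition as the only term, after filterByExpr (12786 of 24421 symbols) and TMM scaling. Genes were called with glmQLFTest at a Benjamini-Hochberg adjusted p below 0.05 over all genes tested. The SE is the absolute log2 fold change divided by the square root of F, with a common biological coefficient of variation of 0.151. The replicate pairs differed by more than sampling noise (chi-square per degree of freedom between 10.1 and 42.9). Alternatives were DESeq2 1.42.0 as a test and as size factors, no filter on low counts, only the 4 libraries compared, a term for the replicate number, limma 3.58.1 on log2 FPKM with a pseudocount of 1 (mean FPKM at least 1 or no minimum) or 0.1, and fits without each library in turn. Gene positions and exon lengths (found for 23334 symbols, 95.5%) are from GENCODE for GRCm38, near-copies were searched with blastn 2.17.0 (at least 90% identity over 150 bases), and promoters are from RefSeq. Python 3.11.15 was used for the rest.

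All 9 members are named. Of each other list, counts are given and up to 3 genes in each direction, those with the largest change among genes called in C-MYC against EV without overlap, with the paralogs Ddx19b and Top1mt, 1 gene of most similar profile for each called member, and Myc and Trp53bp1. Genes overlapping a member or said to be outside this rule were added after values were seen. The members and lists were chosen with earlier results of these data known.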

Additional observations from a re-analysis of the deposited data

How the results depend on the processing

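There were only 2 libraries in a group, and the part of sequencing depth in these results was not tested. The count of members called in BCR-ABL1 against EV went from 0 to 1 (Dhx9) with DESeq2's test, with DESeq2's size factors, without the filter on low counts, with only the 4 libraries compared, and with the replicate block. In C-MYC against EV, the 6 became 3 under limma on log2(FPKM + 1) and on log2(FPKM + 0.1) with a mean FPKM of at least 1, and under log2(FPKM + 1) with no minimum. In C-MYC against BCR-ABL1, the 2 became 3 with DESeq2's test or size factors, without the filter on low counts, or with the replicate block. Thoc1 was the gene added each time. The 2 became 5 with only the 4 libraries compared and 1 under limma with no minimum. The cause of these shifts was not tested. Over all genes, BCR-ABL1 against EV had 2180 calls, and 1055, 1043 and 1425 under the 3 limma settings. C-MYC against BCR-ABL1 had 2991 calls, 1412 under limma with no minimum and 4538 with only the 4 libraries compared.

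Left-out libraries leave a lone sample that is assumed to vary like the other groups. Calls over all genes then ranged from 665 to 2729 in BCR-ABL1 against EV, from 3329 to 6077 in C-MYC against EV (5515 with all libraries) and from 618 to 1291 in C-MYC against BCR-ABL1. Members called ranged from 0 to 1, 3 to 8, and 0 to 1. In C-MYC against EV, Aqr and Ddx19a were lost without C-MYC replicate 1, Rnaseh1, Aqr and Thoc1 without C-MYC replicate 2, and Rnaseh2c and Top1 were gained without EV replicate 2. In BCR-ABL1 against EV, Aqr was gained without EV replicate 2 (log2 fold change 0.39) and Top1, as a fall, without EV replicate 1. Log2 fold changes over the left-out libraries crossed 0 for Rnaseh1 (-0.0433 to 0.10), Rnaseh2a (-0.18 to 0.14), Rnaseh2c (-0.0159 to 0.22) and Top1 (-0.40 to 0.30) in BCR-ABL1 against EV, and for Rnaseh2b (-0.10 to 0.11) and Dhx9 (-0.0288 to 0.19) in C-MYC against BCR-ABL1.

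Other sign changes concerned values near 0: Rnaseh1 in BCR-ABL1 against EV (-0.0333, -0.0354 and -0.0333 under limma with a pseudocount of 1, of 0.1 and with no minimum), Rnaseh2a there (0.0146 with DESeq2's test and 0.00644 with its size factors), and Rnaseh2b in C-MYC against BCR-ABL1 (-0.0432, -0.0435 and -0.0432 under the same settings). Of 216 member values under alternatives that leave out no library, 185 kept direction and call. The ratio of the highest to the lowest member level per length was 20.3 by FPKM and 12.9 by counts per kilobase of exon, and without replicate 1 or replicate 2 it ranged from 19.7 to 20.9.

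The groups share replicate numbers 1 and 2 in the labels, which do not say that a number marks a batch. Deviations from the group means in same-numbered libraries correlated with r of 0.27 for EV and BCR-ABL1, 0.24 for EV and C-MYC, and 0.20 for BCR-ABL1 and C-MYC. With the replicate block, calls over all genes were 3224, 6631 and 4278 in BCR-ABL1 against EV, C-MYC against EV and C-MYC against BCR-ABL1, and members called were 1, 7 and 3: Dhx9, Rnaseh2c and Thoc1 were added, and no call was lost.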
